A study of Mus musculus with 6 samples.

Results

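Within the HoxC interval of mouse chromosome 15, DNA captured with probes against the RNA Hoxc4-au was concentrated in 5 short regions. These lay within 9.26 kb of an interval of 160 kb, and the rest of the interval held 3 weak peaks of single libraries. The interval runs from 102730000 to 102890000 (mm9). Its members were every deposited peak inside it, a choice by position that was made with earlier results of these data known. They were 23 peaks in 8 merged regions, out of 9344 merged regions over the genome. Of the 8 regions, 5 held a peak in each of the 4 lists, against 0.31% (29, these 5 included) of all merged regions. List length holds that share low. The shorter lists had 234 and 204 peaks and the longer ones 5226 and 4157, so most merged regions could not be in all 4. The 5 HoxC regions are numbered 1 to 5 here in the order of their position.

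The cells of all libraries were preadipocytes from C57BL/6 mice, taken from epididymal white fat. Beyond the strain the labels give no genotype, treatment or age, and no origin of the replicates, so the spread between them may be technical. In ChIRP-seq, biotinylated DNA probes that tile an RNA are used to pull down the chromatin on which it sits, and the DNA is sequenced. Whether the DNA captured here came with the RNA or by direct binding of the probes was not tested. An even and an odd pool of probes against Hoxc4-au were each used in 2 replicates, and each capture was compared with the input library of its replicate. The 4 peak lists carry no expression values, so the labelled cell type could not be checked against its markers. A capture with probes against another RNA was not analysed here.

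HOX genes encode homeodomain transcription factors that set position along the body axis of the embryo. They lie in 4 clusters, each gene cluster being read in an order along the chromosome that follows the head-to-tail order of the tissues that use it. Fat depots keep a HOX pattern of their own into adult life, which is one of the ways in which visceral and subcutaneous preadipocytes differ. The clusters also give rise to RNAs that code for no protein, and such an RNA can act at the cluster it comes from or elsewhere.

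All 9 HoxC genes were found in a RefSeq gene table of the later build GRCm38.p6, which was used for names and order only. From low to high coordinates the table lists Hoxc13, needed for hair and nails, then Hoxc12, the long noncoding RNA Hotair, Hoxc11 and Hoxc10, of which the last 2 are used in the hindlimb region. The microRNA gene Mir196a-2, whose product targets several Hox messages, follows. Next are Hoxc9, used in the thoracic spinal cord and a common marker of white as opposed to brown fat cells, and the RNA gene Gm36878. Hoxc8, a thoracic patterning gene that is a target of miR-196a in fat progenitors, is followed by the RNA gene Gm29905. Hoxc6 and Hoxc5, Mir615 and Hoxc4 close the series. Hoxc4, the gene after which the RNA is named, is also known in B cells as an activator of the gene for the antibody-diversifying deaminase. Beyond Hoxc4 the table lists the RNA genes Gm30528, Gm28876 and D930007P13Rik before Smug1, a DNA repair glycosylase. Hoxc4-au itself has no entry in it.

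No gene or exon positions of mm9 were used here, so no peak was assigned to a gene, an exon or an intron, and it was not analysed here which of the 9 genes lack a peak. What the lists do give is position within the interval. Regions 1 to 5 lay between 79.5% and 85.3% of its length, towards high coordinates, the direction in which the table's order runs from Hoxc13 to Hoxc4. The RefSeq promoter table holds 1 of the 9 genes, Hoxc4. The 250 bases before one annotated start of this gene are shown because Hoxc4 gives the RNA its name. They lie at chr15:103034145-103034394, plus strand, in GRCm38.p6, and these positions cannot be set against the mm9 positions of the peaks. Whether a captured region covers them was not analysed here.

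Hoxc4 promoter: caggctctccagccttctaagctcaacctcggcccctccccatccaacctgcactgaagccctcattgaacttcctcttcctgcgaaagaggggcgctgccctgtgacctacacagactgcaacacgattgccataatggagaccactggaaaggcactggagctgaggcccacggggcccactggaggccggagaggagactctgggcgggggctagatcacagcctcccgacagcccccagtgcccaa

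Replicate 1 was the shallower one, with 3934792 and 4099230 tags kept for the even and odd pool after removal of duplicates, against 11514289 and 10231007 in replicate 2. Kept input tags numbered 11924618 and 12179777. The even-pool lists numbered 234 (replicate 1) and 5226 (replicate 2) peaks, the odd-pool lists 204 and 4157. The lowest summit listed held 4 fragments in replicate 1 and 5 in replicate 2, so a stretch with no peak is not shown to be free of capture. Intervals below are exact 95% Poisson or binomial (Clopper-Pearson) intervals on fragments, which cover counting error only. Below, values given as 4 in a row are for the even and odd pool of replicate 1, then the even and odd pool of replicate 2.

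**Figure D1:**
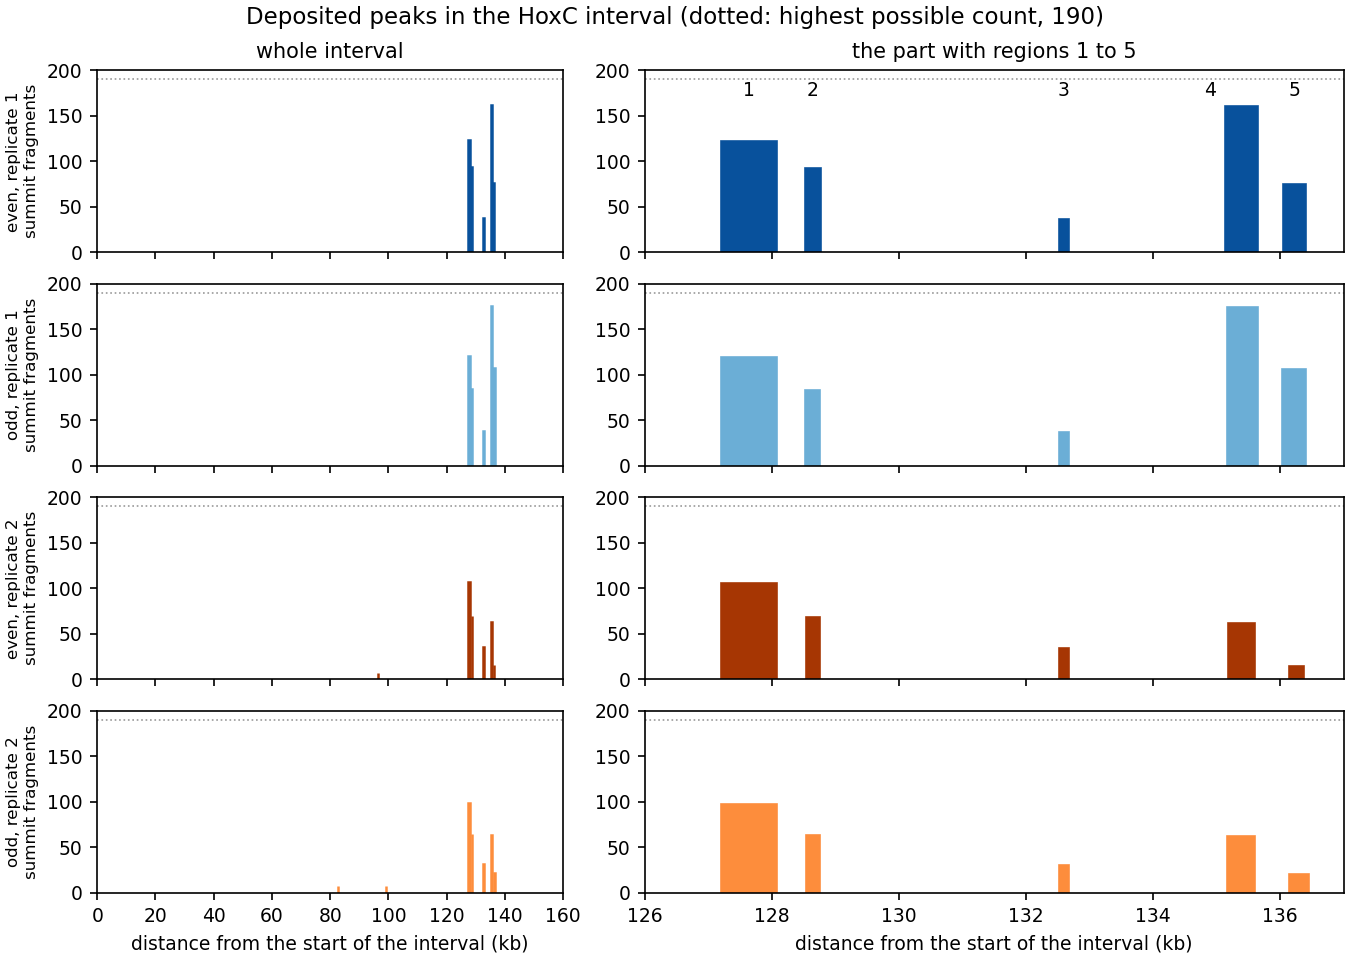
Deposited peaks of the HoxC interval in each library, over the whole interval (left; bars are drawn wider than to scale so that they can be seen) and over the part that holds regions 1 to 5 (right, to scale). The horizontal axis is the distance from the start of the interval in kb; each bar spans 1 peak, and its height is the number of fragments at the summit only. The same 5 positions carry a bar in all 4 libraries, and bars of 7 or 8 fragments lie further left in replicate 2.

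Region 1, at 102857185 to 102858087, was the longest stretch of capture in the interval. Its peaks were 894, 893, 903 and 894 bp wide, the widest of both replicate 1 lists and ranks 2 and 3 by width in the replicate 2 lists. The summits held 123 (interval 102 to 147), 121 (100.4 to 145), 107 (87.7 to 129) and 99 (80.5 to 121) fragments. These intervals all overlap, and the counts of the replicates do not: both replicate 1 counts were the higher ones, from fewer kept tags. Relative to kept tags the summits held 31.3, 29.5, 9.29 and 9.68 fragments per 1e+06 tags. The fold over input went the other way: replicate 1 gave 53.5 (even) and 44.9 (odd), and replicate 2 gave 55.5 and 54.3. The local background under the summit was equal to 4 and 5 input fragments in replicate 1, and to 1 in both lists of replicate 2. The summits compared were not at the same place: they lay 43 bp apart between the pools of replicate 1, 18 bp apart between those of replicate 2, and 265 to 326 bp apart between replicates.

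Region 2, at 102858512 to 102858766, began 424 bp to the right of region 1 and was 254, 252, 238 and 246 bp wide. It held 94, 84, 70 and 65 fragments at its summit, and its summits lay within 14 bp of each other. Relative to kept tags this was 23.9, 20.5, 6.08 and 6.35 fragments per 1e+06 tags. Region 2 was thus lower than its wide neighbour in all 4 libraries on this scale. By fold it was above region 1 in replicate 1 (71.4 and 63.3) and below it in replicate 2 (36.5 and 35.9). The local background was equal to 1 input fragment under each of its 4 summits.

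Region 3, at 102862503 to 102862681, stood alone, 3736 bp from region 2 and 2427 bp from region 4. It was the narrowest of the 5, with widths of 174, 170, 168 and 175 bp, and the lowest in fragments in replicate 1, with 38 for each pool (26.9 to 52.2). Replicate 2 had 35 (24.4 to 48.7) and 32 (21.9 to 45.2). Its summits fell within 2 bp of each other in all 4 libraries, at 48.2% to 51.2% of the peak's width. Peaks of 140 to 180 bp, a width range chosen after the values were seen, were common: they made up 34.6% and 31.4% of the replicate 1 lists and 14.2% and 13.4% of the replicate 2 lists. Among peaks of that width, region 3 ranked 4 and 2 by fold in the replicate 1 lists (29.9 and 29.6) and was the highest in both replicate 2 lists (18.5 and 17.9).

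Region 4, at 102865109 to 102865646, held the most fragments of any peak in both replicate 1 lists, 162 (138 to 189) with the even and 176 (151 to 204) with the odd pool. With tags extended to 95 bp and 1 tag kept per position, no summit can hold more than 190 fragments, and these counts were 85.3% and 92.6% of that limit, which the Poisson intervals do not take into account. In replicate 2 the summit held 63 (48.4 to 80.6) and 64 (49.3 to 81.7) fragments, ranks 21 and 22 in their lists. Relative to kept tags the values were 41.2, 42.9, 5.47 and 6.26 per 1e+06 tags. Fold was 123, 138, 22.1 and 24.3, over a local background equal to 1, 0.817, 2 and 2 input fragments. The caller adds 1 to pileup and background, and without this the ratios were 491, 627, 33.3 and 38.1. The replicates do not overlap on any of these scales, and within each replicate the pools lay close together.

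Region 5, at 102866013 to 102866446, was the last captured region of the interval, 366 bp beyond region 4. Its summit held 76 (59.9 to 95.1), 108 (88.6 to 130.4), 16 (9.15 to 26.0) and 22 (13.8 to 33.3) fragments. Fold was 57.9 and 81.1 in replicate 1, ranks 3 and 2 of their lists, and 5.88 and 10.5 in replicate 2, ranks 702 and 14. By −log10 q its ranks in replicate 2 were 155 and 18, and by summit fragments 96 and 71. Region 5 was therefore among the strongest sites of the genome by fold in replicate 1, and its place in replicate 2 depended on the measure, most of all with the even pool. Its widths were 386, 400, 257 and 326 bp.

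**Figure D2:**
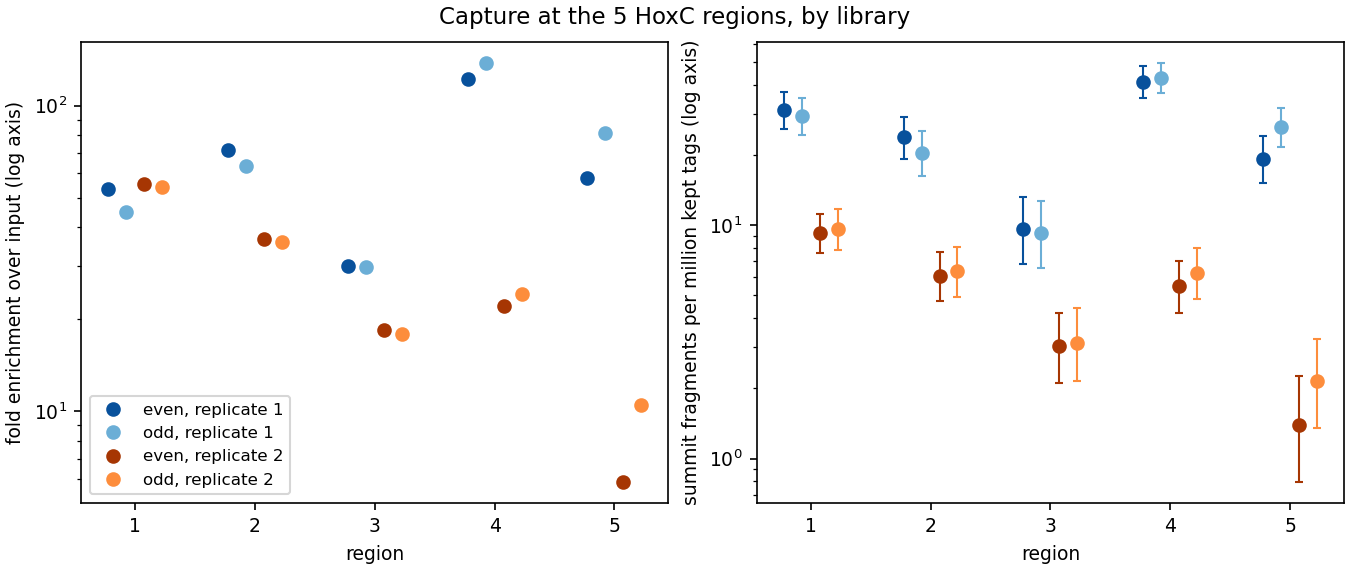
Fold enrichment over input (left) and summit fragments per 1e+06 kept tags with exact 95% Poisson intervals (right) at the 5 HoxC regions, on log axes, with 1 point per library. At regions 4 and 5 the replicate 1 points lie furthest above those of replicate 2, while at region 1 the replicate 2 points are the higher ones in fold (54.3 and 55.5 against 44.9 and 53.5) and the lower ones in fragments per 1e+06 tags.

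By fold the 5 regions stood high in every list, except for region 5 with the even pool of replicate 2. All 5 were among the 10 highest folds of both replicate 1 lists, and 4 of the 5 were in both replicate 2 lists. A −log10 q of 5 or more was reached by all 5 in all 4 lists, where the share of peaks that reached it was 51.3%, 42.6%, 5.15% and 3.73%. The lowest values of the 5 were 60.5 and 59.8 in replicate 1, at region 3, and 5.41 and 15.5 in replicate 2, at region 5. The summits of the 5 regions together held 493 and 527 fragments in replicate 1, or 10.7% and 13.5% of the sum of summit fragments over their lists. In replicate 2 they held 291 and 282 fragments, or 0.687% and 0.827% of the sum over far longer lists.

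The fold values rest on low local backgrounds. Read back from pileup and fold, with the caller's scaling undone, the background under the 20 summits was equal to 0.817 to 5 input fragments. The caller also took background over 1 and 10 kb, so such a value need not be a count at the summit. Its error was not estimated. Fragments relative to kept tags do not use the input and are the second scale here for that reason.

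Relative to kept tags, capture was higher in replicate 1 at all 5 regions and with both pools. The ratio of replicate 1 to replicate 2 was 3.36, 3.93 and 3.18 for the even pool at regions 1, 2 and 3, and 3.05, 3.23 and 2.96 for the odd pool. At region 4 it was 7.52 (interval 5.59 to 10.2) and 6.86 (5.13 to 9.29), and at region 5 13.9 (8.03 to 25.5) and 12.3 (7.69 to 20.4). The lower bounds at region 4 were above the upper bounds at regions 1, 2 and 3 with the same pool, of which the highest were 5.43 (even) and 4.90 (odd). The intervals of regions 4 and 5 overlapped. The intervals of regions 1, 2 and 3 overlapped each other. The difference between replicates was thus larger at the pair on the right than at the 3 regions on the left, beyond counting error, while the limit of 190 fragments lowers high counts such as those of region 4 in replicate 1. These ratios compare 1 library with 1 library. An exact two-sided permutation test of 2 libraries against 2 cannot go below p = 0.333, so the replicates were not tested against each other.

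On the scale of fold, the log2 ratio of replicate 1 to replicate 2, as a mean of the pools, was -0.17 ± 0.16 at region 1 (SD, n = 2 pools), 0.89 ± 0.11 at region 2, 0.71 ± 0.022 at region 3, 2.49 ± 0.029 at region 4 and 3.13 ± 0.24 at region 5. These SDs are between the 2 pools, which share an input within each replicate, and they do not measure the spread between replicates. The 2 scales thus differ in direction at region 1 and give the same 2 regions on the right as the ones with the largest difference. Duplicates were 47.6%, 40.2%, 9.65% and 7.16% of all tags. The part of depth, of duplicates and of the input in these differences was not tested.

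The pools of each replicate were compared at the 5 regions, without adjustment for the 10 comparisons. In replicate 1 the even pool held 1.06, 1.17, 1.04, 0.959 and 0.733 times the odd pool's summit fragments per 1e+06 tags at regions 1 to 5. In replicate 2 the ratios were 0.960, 0.957, 0.972, 0.875 and 0.646. Of these 10 intervals, 9 included 1, for example 0.817 to 1.37 for region 1 and 0.770 to 1.19 for region 4 in replicate 1. The interval of region 5 in replicate 1, 0.539 to 0.992, came close to 1, and its summits lay 85 bp apart between the pools. In replicate 2 region 5 had the lowest ratio again, with a wide interval of 0.317 to 1.29. By fold, the even pool was the higher one at regions 1, 2 and 3 and the lower one at regions 4 and 5 in both replicates, with ratios of 1.19 to 0.714 in replicate 1 and 1.03 to 0.562 in replicate 2. Per 1e+06 kept tags the even pool was below the odd pool at all 5 regions of replicate 2, so this division of the regions holds in replicate 1 alone on that scale.

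The outlines of regions 1, 2 and 3 repeated almost to the base. Over the 4 lists, the left edge moved by 6, 10 and 8 bp and the right edge by 5, 7 and 8 bp. The part common to all 4 lists was 892 of 903 bp at region 1 (98.8%), 93.3% at region 2 and 91.1% at region 3. At region 4 the edges moved by 46 and 51 bp, and at region 5 by 108 and 73 bp, with 82.0% and 58.3% of the merged width in common. Of the other 24 regions with a peak in all 4 lists, 21 had a single peak in each list, and over these the left edge moved by a median of 48 bp (4 to 240) and the right edge by a median of 47 bp (4 to 378). The steadiest edges outside HoxC thus moved as little as those of regions 1 to 3. The 21 had a median width of 161 bp, and 8 of them were wider than 200 bp, as were 4 of the 5 HoxC regions. Region 1 combined steady edges with a summit that moved by 326 bp. This was not particular to HoxC. On chromosome X, a region from 103382016 to 103382604 had a median width of 567.5 bp. Its edges moved by 17 and 27 bp and its summit by 181 bp. The summits of region 3 moved by 2 bp, those of region 2 by 14 bp, those of region 4 by 95 bp and those of region 5 by 105 bp. In region 5 the left edge lay about 100 bp further left in replicate 1 (102866021 and 102866013) than in replicate 2 (102866117 and 102866121), where the summits were at 12.5% and 17.2% of the peak's width.

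**Figure D3:**
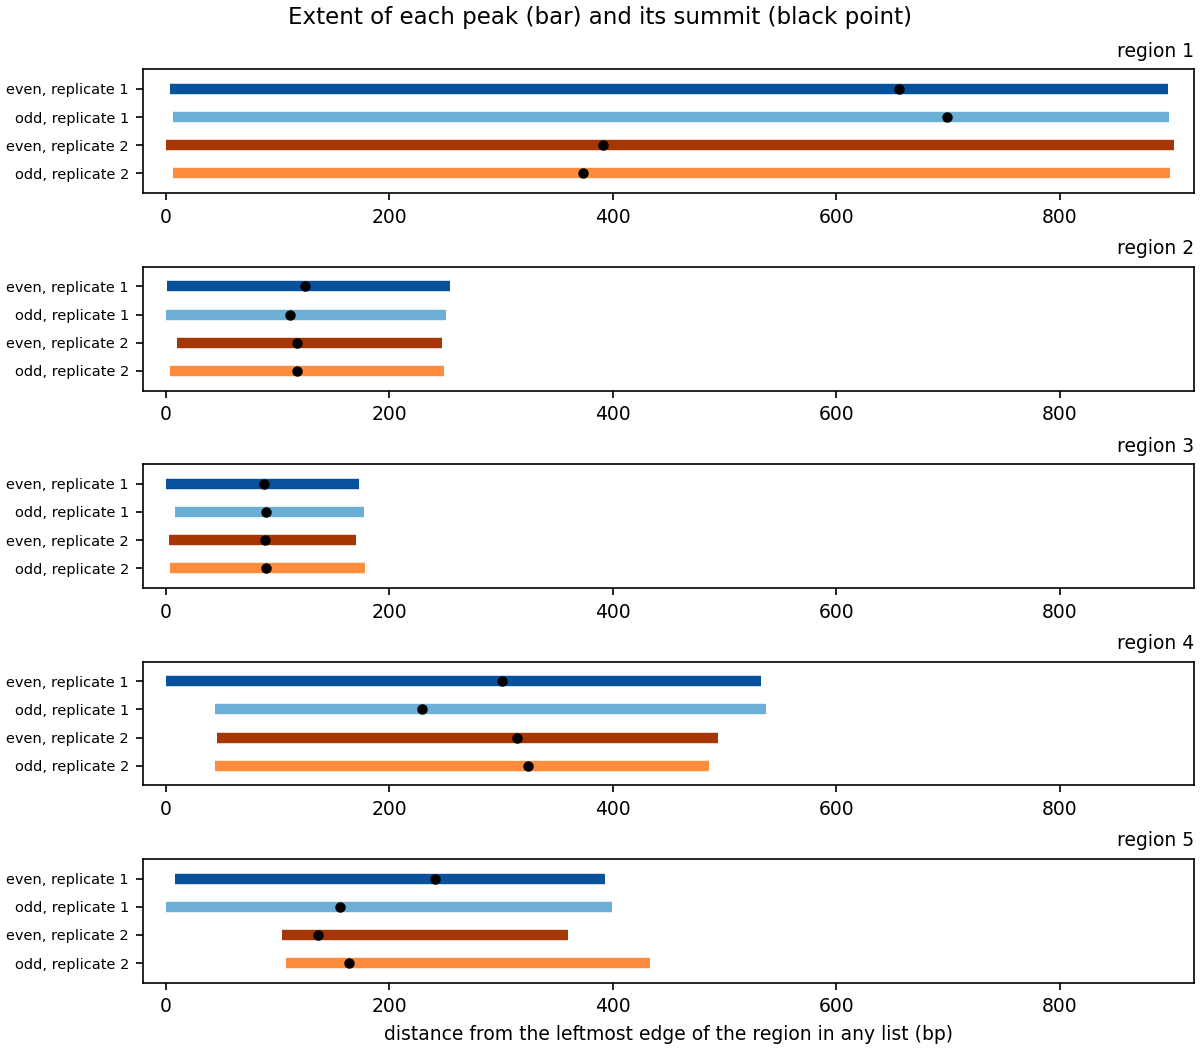
Extent of the peak of each library (bars) and its summit (black points) at the 5 HoxC regions, in bp from the leftmost edge of the region in any list. Regions 1 to 3 start and end within 10 bp of each other in all 4 libraries; the summit of region 1 lies 265 to 326 bp further right in replicate 1 than in replicate 2, and region 5 starts later in replicate 2.

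The remaining 3 peaks of the interval were weak and belonged to replicate 2 alone. An odd-pool peak of 95 bp at 102812540 to 102812634 held 8 fragments with a fold of 5.92. An even-pool peak of 102 bp at 102826337 to 102826438 held 7 fragments with a fold of 5.05. A second odd-pool peak, of 123 bp at 102829163 to 102829285, held 7 fragments with a fold of 5.13, and lay 2.72 kb from the even-pool one without overlap. Their −log10 q values of 3.29, 2.25 and 2.44 were under 5, and their fold ranks were 478 and 2310 among 4157 odd-pool peaks and 1921 among 5226 even-pool peaks. Peaks of at most 8 fragments made up 80.9% and 83.4% of these lists, a range that holds these 3. The last of the 3 ended 27.9 kb to the left of region 1.

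Most of the interval held no peak. No list had one in the first 82.5 kb, and replicate 1 had none in the first 127 kb. To the right of region 5, the last 23.6 kb were empty in all 4 lists. The 5 regions covered 2242, 2209, 2015 and 2084 bp, and all peaks together covered 1.32% to 1.44% of the interval. Outside the interval, the nearest peak to the left was 5312 and 4237 kb away in replicate 1 (fold 11.7 and 5.21) and 453 and 389 kb away in replicate 2 (fold 4.42 and 4.61). The length of chromosome on either side of the interval was not taken into account. To the right, 1 list alone had further peaks on the chromosome, the even pool of replicate 2. The nearest lay at 26.9 kb, with 7 fragments and a fold of 5.05. With 100 kb added on each side of the interval, this list held 8 peaks against 6 inside it. Chromosome 15 carried 11, 8, 271 and 182 peaks, 5 of them in these regions each time.

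**Figure D4:**
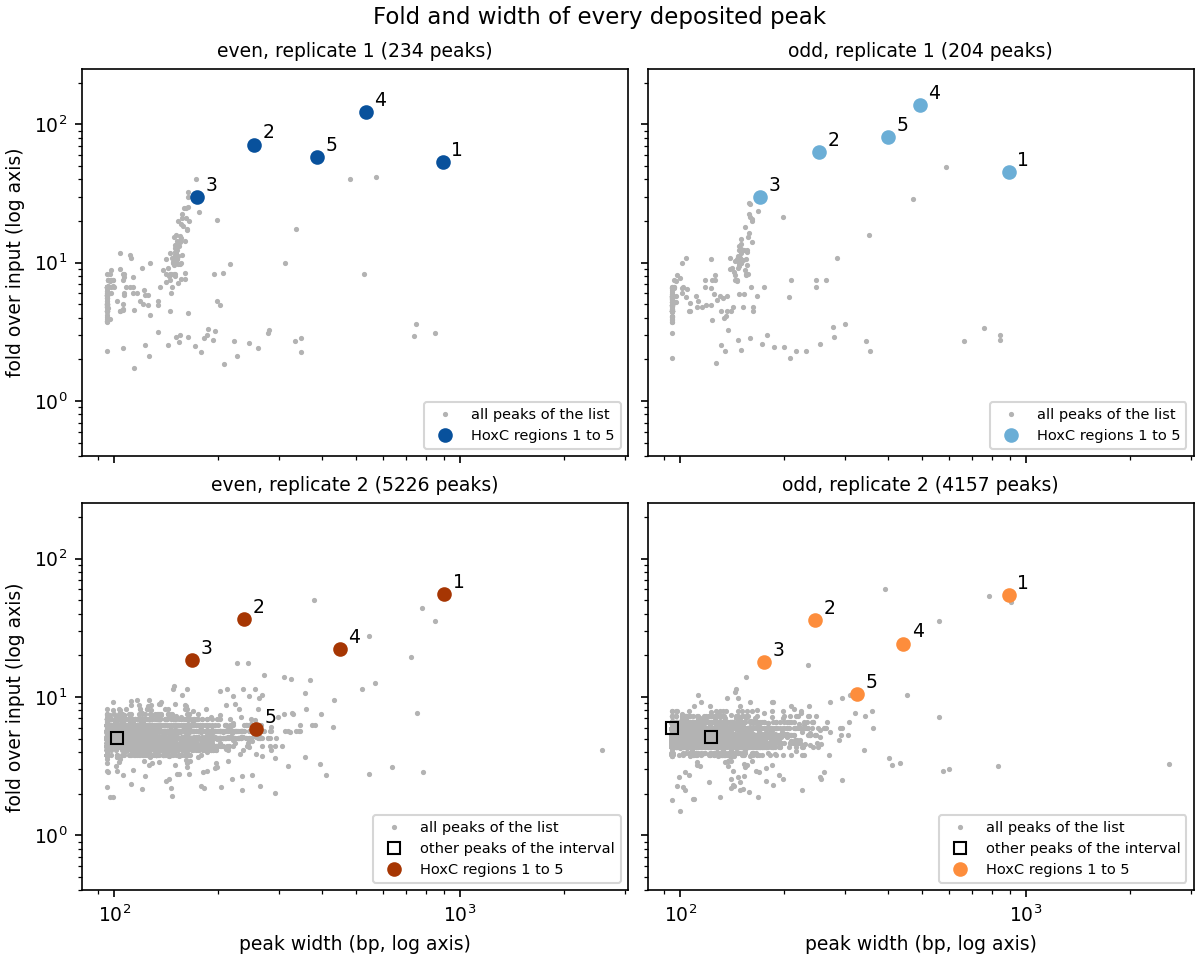
Fold over input against peak width, both on log axes, for every deposited peak (grey), with the HoxC regions 1 to 5 (coloured, numbered) and the other peaks of the interval (open squares). In replicate 1 all 5 regions lie among the 10 highest folds; in replicate 2 the fold of region 5 (5.88 and 10.5) is within the bulk with the even pool and above most peaks with the odd pool, and the open squares (fold 5.05 to 5.92) lie within it.

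Other groups of neighbouring peaks existed. With peaks at most 5 kb apart joined into a group, groups of 5 or more peaks numbered 3, 4, 3 and 4 in the lists, and the HoxC regions formed one of them each time. In the others of that size the highest fold was 3.60, 3.59, 9.34 and 10.3. The lowest fold within the HoxC group was 29.9, 29.6, 5.88 and 10.5, and the highest was 123, 138, 55.5 and 54.3. In the even pool of replicate 2 region 5 thus lay below the highest fold of these other groups. Smaller groups could be as strong as HoxC: in replicate 2 a group of 3 peaks on chromosome 4, from 43575631 to 43579718 with the even pool, had folds of 35.3 to 50.5 with that pool and 48.5 to 59.9 with the odd pool, the latter reaching above the highest HoxC fold of that list. This group was singled out after its values were seen. The median local background of the other groups of 5 or more peaks was 10.7 to 39.2 fragments in replicate 1 and 0.520 to 12.8 in replicate 2, while that of the HoxC group was 0.330, 0.344, 0.945 and 0.840. These are descriptions of the deposited peaks, and no test was made of them.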

How the data were processed

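The authors ran MACS 2.1.1.20160309 per library, without pooling, and used the matching input as control, per the file headers, with a p cutoff of 5e-05, local background taken over 1 and 10 kb, tags extended to 95 bp and 1 tag kept per position. The submitters' processing notes name FastQC, cutadapt, Bowtie and mm9. The aligner's version is not given in the sources used here. The deposited signal is the pileup at the summit in fragments. The deposited fold is a ratio, (pileup + 1) / (local background + 1), which was solved for the background, and this was divided by the caller's scaling of the input to give input fragments. The deposited −log10 p-values and −log10 q-values were used as given, though the file headers say that q-values are not calculated.

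Peaks of all lists were merged where they overlapped by at least 1 bp, and those inside the interval were kept. The merging was tested on simulated data. Computation used Python 3.11.15, numpy 2.4.6, pandas 2.3.3, scipy 1.17.1 and matplotlib 3.10.9. Alternatives were other overlap and join rules, stricter thresholds, a wider interval, other scales and each replicate alone. With 1 library per pool and replicate, the design fixed no test. All 9 genes and every peak of the interval are named. The members and lists were chosen with earlier results of these data known, and the groups of neighbouring peaks and the ratios with intervals were added after the values were seen. HoxA, HoxB and HoxD were not looked up, since no mm9 positions of genes were used here.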

Additional observations from a re-analysis of the deposited data

How the results depend on the processing

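The count of 5 regions in all 4 lists was the same with an overlap of at least 50% of the shorter peak, a −log10 q of 5 or more, a fold of 5 or more, 100 kb added on each side and each replicate alone (5 to 5), and became 3 when peaks up to 500 bp apart were joined, because regions 1 and 2, and 4 and 5, then count once. Peaks per library stayed within 1.5 times of the main count under all 3 alternatives. The log2 ratio of replicate 1 to replicate 2 depended on the scale. At region 1 it turned from -0.17 for fold to 0.25 for summit fragments and 1.68 per 1e+06 kept tags. At regions 2 to 5 it moved without a change of direction, to 0.40, 0.18, 1.41 and 2.27 for summit fragments and to 1.83, 1.62, 2.85 and 3.71 per 1e+06 kept tags. The even over odd ratio kept its direction at all 5 regions as a mean of the replicates; for summit fragments it moved to 0.065 at region 3 and -0.071 at region 4 (log2) from 0.030 and -0.15. With each replicate alone, log2 even over odd fold was 0.031 to 0.25, 0.025 to 0.18, 0.014 to 0.045, -0.17 to -0.13 and -0.83 to -0.49 at regions 1 to 5. Without the caller's added 1, the mean fold over the 4 libraries moved from 52.0 to 98.7, 51.8 to 170.2, 24.0 to 80.0, 76.8 to 297 and 38.8 to 143 at regions 1 to 5. The lowest place of regions 1 to 5 in any list was rank 5, 5, 10, 7 and 702 by fold, 4, 5, 10, 7 and 155 by −log10 q, and 8, 20, 55, 22 and 96 by summit fragments. Depth per library, a limit of 190 fragments at a summit and backgrounds of about 1 input fragment restrict the precision of folds. The ratios between pools were taken within each replicate, and those between replicates within each pool. No paired test was made, because the design fixed no test to which a replicate block could be added.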
